A study of Mus musculus with 8 samples.

Results

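Pericytes and smooth muscle cells are the mural cells that wrap the endothelial tube of blood vessels. Pericytes are held on capillaries by PDGF-B, which endothelial cells release and which the receptor Pdgfrb on the pericyte binds. In the heart, pericytes are also known for a KATP channel, a potassium channel that opens when cellular ATP is low, made of the pore Kcnj8 and the sulfonylurea receptor Abcc9. The 8 genes described here, *Pdgfrb*, *Mcam*, *Cspg4*, *Rgs5*, *Rgs4*, *Kcnj8*, *Abcc9* and *Higd1b*, are widely used to mark these cells. They were chosen by name from the 54532 genes of the deposited table, over its 8 libraries. All 8 had an FPKM (fragments scaled to gene length and library size) of at least 0.5 in at least 2 libraries, the minimum that 15708 genes met for testing.

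The libraries came from MICFs, which are cardiac fibroblasts taken from infarcted hearts of adult male C57BL/6 mice. By staining in the paper, MICFs as isolated were mostly cardiac fibroblasts, with a minority of macrophages and few endothelial cells. The sources do not say whether macrophages were removed from the cells used here. All groups carried tetracycline-inducible lentiviruses for MGT (*Mef2c*, *Gata4* and *Tbx5* in 1 construct), *Myocd*, *Sall4* and eGFP, the genotype given in the labels as MGTMyoS overexpression. Cells injected into the left ventricle of C57BL/6 mice at ligation of the coronary artery, and recovered as sorted eGFP+ cells, are the *in vivo* samples, and eGFP+ cells sorted from continued culture of the same infected cells are the *in vitro* samples. Each was collected at 1 week (Day 7) and 2 weeks (Day 14) with 2 libraries per group. All groups received doxycycline. According to the methods of the study, recipient mice also received tacrolimus, methylprednisolone and mycophenolate mofetil, and the reprogramming medium also held SB431542 and baricitinib, inhibitors of the TGF-β receptor and of JAK kinases. Effects of the heart and of these agents cannot be told apart. The labels and methods do not tie a replicate to an animal or a well, so p-values measure the spread between these libraries only, which may be technical.

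The libraries held between 12304242 and 14546904 fragments on genes. None of the 13 endothelial, 11 fibroblast and 11 macrophage markers examined was at 0 in any library. The fibroblast markers had a summed FPKM of 10818 to 13505 in the *in vivo* samples and 2151 to 3215 in the *in vitro* samples, and the macrophage markers had 1942 to 3084 and 4852 to 5949. *Lyz2* was the largest part of the macrophage sum, with means of 1392 then 1088 in the heart and 3794 then 3316 in culture. By the calls defined below, the first week had 1 macrophage marker higher in the heart (*Fcgr1*) and 1 lower (*Lyz2*). All tested genes had 7.79% and 5.07%. The second week had 0 higher and 6 lower, beside 9.02% and 8.05%. In bulk RNA, fewer cells of a type and less RNA per cell cannot be told apart, so the levels below belong to the sorted populations and not to a counted number of pericytes.

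*In vivo* and *in vitro* samples were compared at each week to ask which of the mural genes differed between cells in the heart and cells in culture. At 1 week, 6 of the 8 genes were higher in the *in vivo* samples (*Rgs4*, *Rgs5*, *Higd1b*, *Cspg4*, *Abcc9* and *Kcnj8*) and 0 were lower. At 2 weeks, *Rgs4*, *Cspg4* and *Rgs5* were higher while *Kcnj8* and *Abcc9* were lower. A gene was called where its limma p, adjusted by Benjamini-Hochberg over all tested genes, was below 0.01 and its log2 fold change was beyond 1 in either direction. Of all tested genes, 7.79% were called higher and 5.07% lower at 1 week, and 9.02% and 8.05% at 2 weeks. The median log2 fold change of the 8 genes was 1.91 at 1 week and 0.26 at 2 weeks, beside -0.0058 and -0.0034 over all tested genes. Fold changes were fitted on log2(FPKM + 0.1), which understates those of low genes. The deposited FPKM include a scaling between libraries. Without it the median of all tested genes moved to -0.34 at 1 week and -0.32 at 2 weeks, so that small positive differences change sign, and of the genes called, 36.8% instead of 60.6% were higher *in vivo* at 1 week, and 33.1% instead of 52.8% at 2 weeks.

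**Figure D1:**
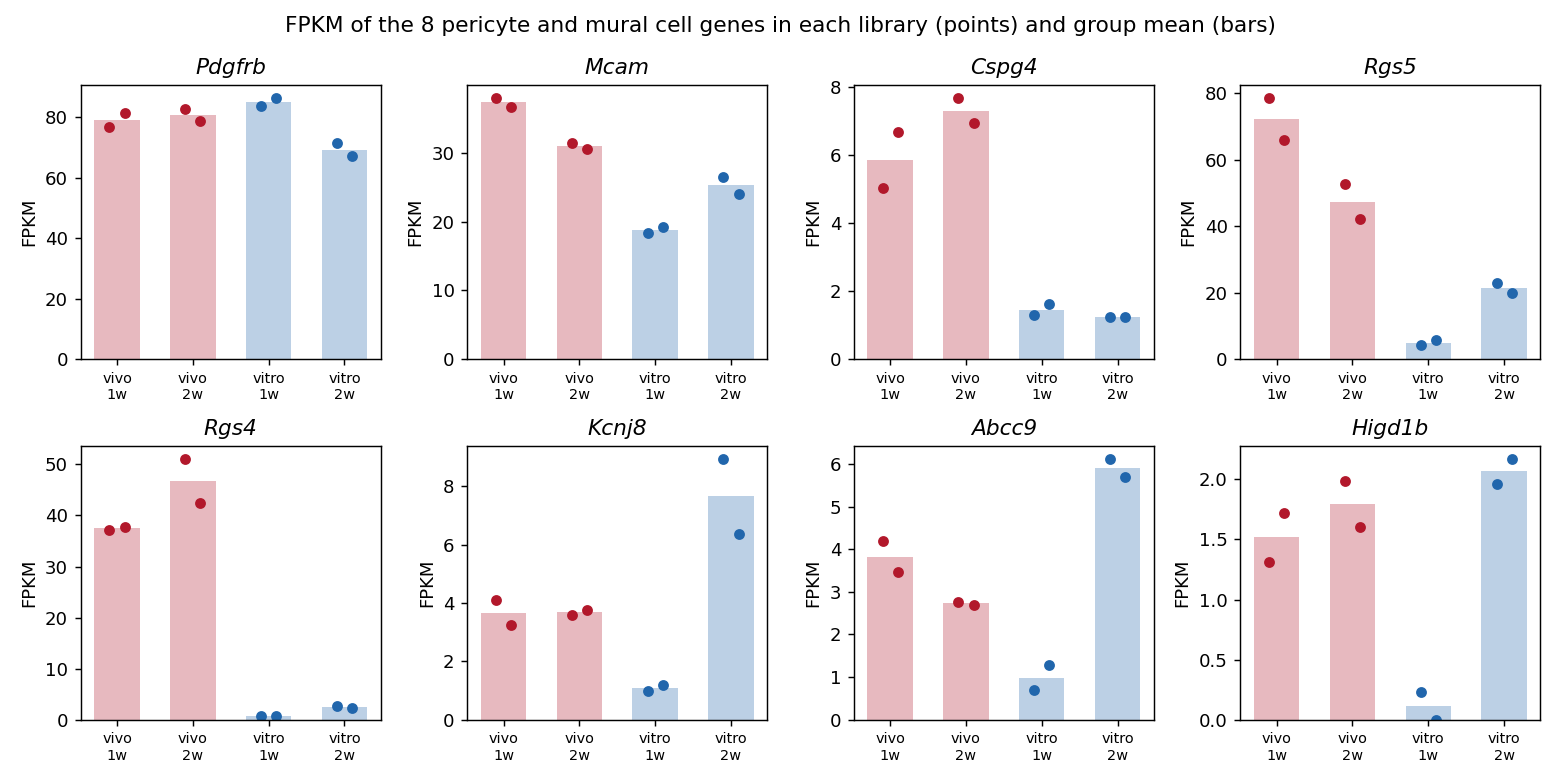
FPKM (vertical axis, linear and starting at 0) of each gene in the 4 groups, with 1 point per library and a bar at the mean of 2 libraries. *Rgs4* and *Cspg4* were low in both culture groups, *Kcnj8*, *Abcc9* and *Higd1b* were lowest in culture at 1 week and highest in culture at 2 weeks, and *Pdgfrb* lay between 67.1 and 86.4 in every library.

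*Pdgfrb*, the receptor for PDGF-B and PDGF-D, is encoded at chr18:61045150-61085061 on the plus strand (GRCm38, ENSMUSG00000024620). Its FPKM was 76.9 and 81.5 in the *in vivo* samples and 83.7 and 86.4 in the *in vitro* samples at 1 week, and 82.8 and 78.7 against 71.5 and 67.1 at 2 weeks. It was the most abundant of the 8 genes in 7 of the 8 libraries, and the groups were separated by little at either week. The log2 fold change *in vivo* over *in vitro* was -0.10 at 1 week (95% interval -0.25 to 0.05, limma adjusted p = 0.23) and 0.22 at 2 weeks (limma adjusted p = 0.024), neither of which was called. Without the scaling between libraries these were -0.45 and -0.11, so that the direction at 2 weeks was the opposite. The receptor *Pdgfra*, a fibroblast gene, lay at 20.9 ± 1.0 FPKM *in vivo* against 19.99 ± 0.28 *in vitro* (SD, n = 2) at 1 week and at 27.5 ± 0.4 against 23.9 ± 0.6 at 2 weeks. The ratio of *Pdgfrb* to *Pdgfra* FPKM was 3.82 and 3.78 *in vivo* and 4.15 and 4.37 *in vitro* at 1 week, and 3.04 and 2.83 against 2.94 and 2.85 at 2 weeks. The *in vivo* libraries lay below culture at 1 week and overlapped it at 2 weeks, and every 2-week ratio was below every 1-week ratio. Pooled over the weeks, which this test does not separate, the arms differed by -0.07 on the log2 scale (exact permutation test of 4 against 4 libraries, two-sided p = 0.6, adjusted p = 0.686 over 3 ratios).

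The PDGF receptor axis held 19 other genes, with ligands, receptors and signal transducers. At 1 week 2 were called higher and 0 lower *in vivo*, and at 2 weeks 2 higher and 1 lower. Those counts lay near the shares of all tested genes, which were 7.79% higher and 5.07% lower, then 9.02% and 8.05%. The ligand gene *Pdgfb* was at 11.6 ± 1.3 *in vivo* and 4.23 ± 0.39 *in vitro* at 1 week (log2 fold change 1.43, limma adjusted p = 1.7e-04) and at 8.30 ± 1.09 and 8.81 ± 0.32 at 2 weeks (-0.09, limma adjusted p = 0.59). *Pdgfb* was therefore called at 1 week, and its 2-week values lay within the spread of the libraries. *Pdgfa*, which encodes the chain that binds PDGFRα, and *Pdgfc* had log2 fold changes at 1 week of 0.96 and 0.90, which at 2 weeks were 0.89 and -0.04, and *Pdgfd* had -0.15 and 0.15. None of these was called. *Pdgfrl*, which encodes a secreted receptor-like protein, was higher *in vivo* at both weeks, at 73.7 ± 0.6 against 3.65 ± 0.17 FPKM at 1 week and 99.96 ± 4.05 against 6.02 ± 0.20 at 2 weeks (log2 4.30 and 4.03). *Lrp1*, which encodes a co-receptor of Pdgfrb, was called at 2 weeks (log2 1.67, limma adjusted p = 1.0e-04) and not at 1 week (0.65).

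*Mcam* encodes CD146, an adhesion receptor of mural and endothelial cells, at chr9:44134469-44142727 on the plus strand (ENSMUSG00000032135). Its FPKM was 38.0 and 36.7 in the *in vivo* samples and 18.3 and 19.2 in the *in vitro* samples at 1 week, and 31.4 and 30.6 against 26.5 and 24.1 at 2 weeks. The *in vivo* libraries were above the *in vitro* libraries at both weeks, with a narrower gap at 2 weeks. The log2 fold change of 0.99 at 1 week (SE 0.07, limma adjusted p = 5.4e-05) fell just short of the fold threshold, and it was 1.01 without replicate 2 of the *in vivo* samples at 1 week and 1.02 without replicate 2 of the *in vitro* samples. At 2 weeks it was 0.29 (limma adjusted p = 0.01), and -0.04 without the scaling between libraries. Exons of *Mcam* share 17 bases with the antisense gene *Gm10687* (FPKM 0.273 to 0.658), and the strand setting of the counting is not given in the sources used here.

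*Cspg4*, the gene of the NG2 proteoglycan on pericytes and glial progenitors, lies at chr9:56865033-56899870 on the plus strand (ENSMUSG00000032911). Its FPKM was 5.03 and 6.68 in the *in vivo* samples and 1.30 and 1.62 in the *in vitro* samples at 1 week, and 7.69 and 6.94 against 1.23 and 1.23 at 2 weeks. The lowest *in vivo* library lay above the highest *in vitro* library, and neither arm was called between the weeks. The log2 fold changes were 1.93 (SE 0.17, limma adjusted p = 1.7e-04) and 2.48 (limma adjusted p = 4.2e-05). Because NG2 also marks glia, 6 Schwann cell markers were examined, of which 3 could be tested. Their summed FPKM was 6.59 to 7.35 and 11.6 to 11.95 *in vivo* and 2.005 to 2.67 *in vitro*, led by *Cdh19* and *S100b*, while *Foxd3* was listed at 0 in at least 1 library and *Sox10* had a mean of 0.0643 to 0.240. This list was higher in the same samples as *Cspg4*, and its part in the result was not tested.

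Of 13 genes for proteins that bind NG2 or CD146, the first week had 7 higher and 1 lower *in vivo*, beside 7.79% and 5.07% of all tested genes. The second had 6 higher and 3 lower, beside 9.02% and 8.05%. The collagen gene *Col5a1* was at 532 ± 46 FPKM against 115 ± 2 at 1 week and 433 ± 59 against 49.2 ± 0.5 at 2 weeks. The guidance cue *Ntn1* was at 13.3 ± 0.2 against 3.35 ± 0.06 and at 28.9 ± 0.7 against 3.50 ± 0.01. *Kdr*, the VEGF receptor of endothelial cells, was at 4.74 ± 0.44 against 0.688 ± 0.128 at 1 week (log2 2.63) and at 3.86 ± 0.32 against 2.18 ± 0.11 at 2 weeks (0.79, not called). *Col5a1* and *Ntn1* were higher at both weeks, and *Kdr* was called at 1 week.

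*Rgs5* and *Rgs4* encode GTPase-activating proteins that shorten signalling by Gq- and Gi-coupled receptors, and *Rgs5* is the most widely used transcript marker of pericytes. The FPKM of *Rgs5* was 78.6 and 66.0 in the *in vivo* samples and 4.16 and 5.73 in the *in vitro* samples at 1 week, and 52.6 and 42.1 against 22.8 and 19.9 at 2 weeks. It was higher in both *in vivo* libraries at each week, with no overlap, and the gap was narrower at 2 weeks, when the culture level was higher and the *in vivo* level lower. The log2 fold change was 3.86 at 1 week (SE 0.18, limma adjusted p = 1.0e-05, 14.6-fold) and 1.14 at 2 weeks (SE 0.18, limma adjusted p = 0.0019, 2.22-fold). The call at 2 weeks was lost without the scaling between libraries (0.81), without replicate 1 of the *in vivo* samples (0.98, limma adjusted p = 0.014) or replicate 2 of the *in vitro* samples at that week (1.04, limma adjusted p = 0.017), and with the libraries of that week alone (limma adjusted p = 0.011).

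The FPKM of *Rgs4* was 37.2 and 37.8 in the *in vivo* samples and 0.818 and 0.756 in the *in vitro* samples at 1 week, and 51.1 and 42.4 against 2.73 and 2.40 at 2 weeks. This was the widest separation among the 8 genes at both weeks. The log2 fold change was 5.41 (SE 0.11, limma adjusted p = 4.6e-07, 47.7-fold) at 1 week and 4.13 (limma adjusted p = 9.6e-07, 18.2-fold) at 2 weeks, and it was called under every alternative tried. Together *Rgs5* and *Rgs4* made up 40.5% to 47.2% of the summed FPKM of the 8 genes in the *in vivo* libraries, 4.52% to 5.58% in the *in vitro* libraries at 1 week and 17.3% to 18.0% at 2 weeks. *Pdgfrb* made up 31.4% to 37.7%, 74.4% to 76.0% and 50.4% to 52.0% of the same sums.

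Of 19 other RGS genes, 12 could be tested. The calls were 1 higher and 3 lower *in vivo* in the first week, beside 7.79% and 5.07% of all tested genes. In the second they were 0 higher and 3 lower, beside 9.02% and 8.05%. *Rgs6*, *Rgs17* and *Rgs18* were lower each time, by log2 values of -1.52, -1.42 and -1.01, then -1.88, -1.43 and -1.29. *Rgs16*, of the same R4 subfamily as *Rgs4* and *Rgs5*, was at 41.4 ± 3.1 FPKM against 29.0 ± 1.9 at 1 week and 25.5 ± 0.7 against 46.7 ± 4.9 at 2 weeks (log2 0.51 and -0.87, neither called), and *Rgs2* had log2 fold changes of 0.17 and -0.49. These paralogs thus had smaller log2 values than *Rgs4* and *Rgs5*, with the opposite sign at 2 weeks. The difference between the weeks, tested as the interaction described below, was called for 2 RGS genes, both with a lower ratio at 2 weeks. *Rgs16* was among them (log2 -1.38, limma adjusted p = 0.0037), so this trait was not particular to *Rgs4* and *Rgs5*. With any library left out, 0 of these RGS interaction calls remained. The count of RGS calls was 1 to 4 over the alternatives in the first week and 0 to 6 in the second.

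*Kcnj8* encodes Kir6.1, the pore of the vascular KATP channel. Its FPKM was 4.09 and 3.25 in the *in vivo* samples and 0.994 and 1.18 in the *in vitro* samples at 1 week, and 3.58 and 3.77 against 8.94 and 6.38 at 2 weeks. The *in vivo* libraries were above culture at 1 week and below it at 2 weeks, without overlap at either week. The log2 fold change was 1.66 (SE 0.19, limma adjusted p = 5.8e-04) and then -1.02 (limma adjusted p = 0.0042).

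*Abcc9* encodes SUR2, the regulatory partner of that pore. Its FPKM was 4.18 and 3.47 in the *in vivo* samples and 0.698 and 1.28 in the *in vitro* samples at 1 week, and 2.76 and 2.69 against 6.12 and 5.70 at 2 weeks. The order of the groups was that of *Kcnj8*. The log2 fold change was 1.90 (SE 0.25, limma adjusted p = 0.001) and then -1.09 (limma adjusted p = 0.0094), so both subunits were called in opposite directions at the 2 times. At 1 week the call of *Abcc9* was lost without replicate 1 of the *in vivo* samples (limma adjusted p = 0.013) and with that week's libraries alone (limma adjusted p = 0.015). The calls at 2 weeks lay close to both thresholds. That of *Abcc9* was lost in 11 of 19 alternatives and that of *Kcnj8* in 7, among them leaving out either *in vivo* library of that week or replicate 1 of the *in vitro* samples, with limma adjusted p up to 0.053 and 0.026 and the log2 fold change between -1.41 and -0.89 and between -1.34 and -0.78.

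Of 12 other channel genes, 7 could be tested, and at both weeks 3 were higher and 3 lower *in vivo*. The shares called over all tested genes were 7.79% higher and 5.07% lower at 1 week, then 9.02% and 8.05%. The pore *Kcnj11* and receptor *Abcc8*, which form the KATP channel of pancreatic beta cells, had mean FPKM of 0 to 0.347 and 0.0123 to 0.162 and were too low to test. *Kcnj15*, an inward rectifier, was at 24.8 ± 2.9 against 0.365 ± 0.066 at 1 week and 23.7 ± 0.5 against 0.104 ± 0.018 at 2 weeks, while *Kcnj5*, a pore of the cardiac acetylcholine-gated channel, was at 1.23 ± 0.17 against 6.94 ± 0.84 and 0.582 ± 0.113 against 17.3 ± 0.7. *Kcnma1*, the pore of the large-conductance calcium-activated channel of smooth muscle, was called higher at both weeks (log2 2.43 and 3.42). The channel genes thus moved in both directions.

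*Higd1b*, a hypoxia-inducible domain family gene expressed in cardiac and lung pericytes, lies at chr11:102835849-102838040 on the plus strand (ENSMUSG00000020928) and was the least abundant of the 8 *in vivo*. It had 13 and 19 fragments in the *in vivo* libraries and 3 and 0 in the *in vitro* libraries at 1 week, and 19 and 15 against 23 and 25 at 2 weeks. These counts correspond to FPKM of 1.31 and 1.72 against 0.230 and 0, and 1.99 and 1.60 against 1.96 and 2.17, where the count of 0 allows up to 0.237. *Higd1b* was thus near the limit of detection in culture at 1 week and had close values in both arms at 2 weeks. The ratio of fragment rates at 1 week was 13.1 with an exact 95% interval of 4.09 to 66.8, which covers counting error only. The fit called it at 1 week (log2 3.14, limma adjusted p = 0.0029), a value that depends on the pseudocount (1.18 to 4.95 over the alternatives). The call was lost without either *in vivo* library of that week (limma adjusted p = 0.019 and 0.028), with that week's libraries alone (limma adjusted p = 0.026) and with a pseudocount of 0.01 (limma adjusted p = 0.021). At 2 weeks the log2 fold change was -0.20 (limma adjusted p = 0.78). Its paralog *Higd1a* had a mean of 10.01 to 13.3 FPKM in the groups and was not called.

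The 2 times were then compared within each arm to ask in which arm each gene changed. In the *in vitro* samples, *Higd1b*, *Kcnj8*, *Abcc9*, *Rgs5* and *Rgs4* rose from 1 to 2 weeks and 0 of the 8 genes fell, where 2.76% of all tested genes were called higher and 1.05% lower. *Kcnj8* rose 7.04-fold (log2 2.69, limma adjusted p = 3.8e-04) and *Abcc9* 5.98-fold (2.52, limma adjusted p = 0.0011). *Rgs5* rose 4.32-fold (2.10, limma adjusted p = 7.1e-04) and *Rgs4* by 1.58 on the log2 scale (limma adjusted p = 3.7e-04), or by 0.99, short of the fold threshold, with a pseudocount of 1. For *Higd1b* the ratio of fragment rates was 17.7 (exact 95% interval 5.70 to 88.8), and the fitted call (limma adjusted p = 0.0044) was lost in 8 of 18 alternatives. *Cspg4*, *Pdgfrb* and *Mcam* had log2 changes of -0.22, -0.30 and 0.43 and were not called. The count was 3 of 8 without either *in vitro* library at 2 weeks, when the calls of *Abcc9* and *Higd1b* were lost.

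In the *in vivo* samples 0 of the 8 genes were called between the weeks, where 1.23% of all tested genes were called higher and 0.949% lower. The log2 changes ran from -0.61 for *Rgs5* (limma adjusted p = 0.064) to 0.33 for *Cspg4* (limma adjusted p = 0.24), and *Kcnj8* was at 0.01. At an unadjusted limma p under 0.05 there were 3 genes, *Rgs5*, *Mcam* and *Rgs4*, and limma voom on whole fragments worked out from the FPKM called 0. The difference between the weeks in the *in vivo* over *in vitro* change was tested as an interaction, and it was called for *Abcc9* (log2 -2.99, limma adjusted p = 0.006), *Rgs5* (-2.71, limma adjusted p = 0.0036), *Kcnj8* (-2.68, limma adjusted p = 0.0038) and *Rgs4* (-1.27, limma adjusted p = 0.0064). These 4 of 8 genes had a lower ratio at 2 weeks, 0 had a higher one, and 1.15% and 0.573% of all tested genes were called in these directions. *Higd1b* (-3.34, limma adjusted p = 0.036), *Mcam* (-0.70), *Cspg4* (0.54) and *Pdgfrb* (0.32) were not called. The interaction calls depended on all libraries being present: 0 or 1 of them was left when any library was left out, with limma adjusted p of 0.012 to 0.042 where a call was lost, while all 4 log2 values kept their sign, and 0 was left with no filter on low values or no variance trend. The weekly comparisons, the comparisons over time and the interaction share libraries and are not independent of each other.

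**Figure D2:**
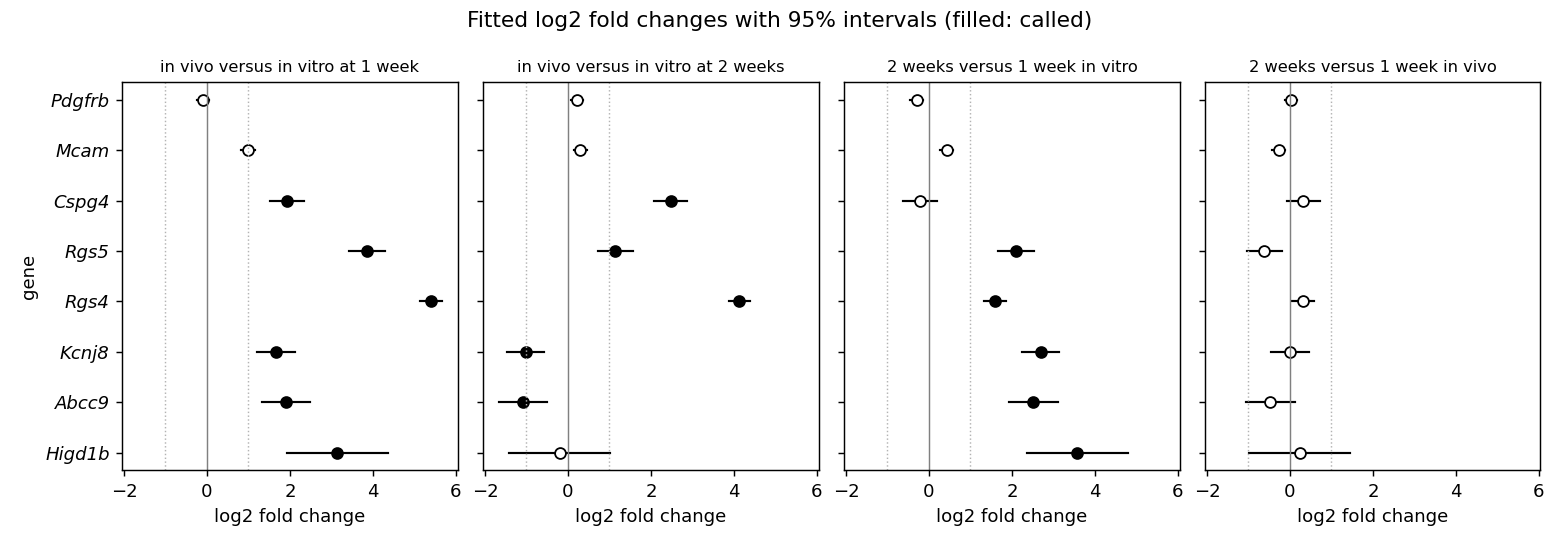
Fitted log2 fold changes (horizontal axis) of the 8 genes in the 4 comparisons, with 95% intervals and with filled points for called genes; dotted lines stand at log2 fold changes of -1 and 1. Of the 8 genes, 6 were called at 1 week, 5 at 2 weeks in both directions, 5 over time in culture and 0 over time in the heart.

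*Rgs5* and *Rgs4* are neighbours on chromosome 1, at chr1:169655501-169695813 on the plus strand and chr1:169741477-169747642 on the minus strand (ENSMUSG00000026678 and ENSMUSG00000038530), with 45.7 kb and 0 annotated genes between them. *Kcnj8* and *Abcc9* are neighbours on chromosome 6, at chr6:142564837-142571614 and chr6:142587862-142702315, both on the minus strand (ENSMUSG00000030247 and ENSMUSG00000030249), with 16.2 kb and 0 genes between them. The ratio of *Abcc9* to *Kcnj8* FPKM was 0.685 to 1.08 over the 8 libraries, in which *Kcnj8* itself ranged from 0.994 to 8.94. It differed between the arms by 0.08 on the log2 scale (exact permutation test of 4 against 4 libraries, two-sided p = 0.686, adjusted p = 0.686). The ratio of *Rgs5* to *Rgs4* was 2.11, 1.75, 1.03 and 0.992 in the *in vivo* libraries and 5.09, 7.57, 8.35 and 8.29 in the *in vitro* libraries. The arms did not overlap, and the mean log2 ratio was 0.48 ± 0.55 *in vivo* and 2.75 ± 0.37 *in vitro* (SD, n = 4), a difference of -2.27. The exact permutation test gave a two-sided p of 0.0286, the smallest it can give with 4 against 4 libraries, and an adjusted p of 0.0857 over the 3 ratios, which does not pass 0.05. The range of ratios was thus narrower for *Kcnj8* and *Abcc9* than for *Rgs5* and *Rgs4*, although the 2 ratios were not tested against each other. Exons of *Abcc9* share 158 bases with the antisense gene *5330439B14Rik*, whose FPKM was at most 0.0519.

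**Figure D3:**
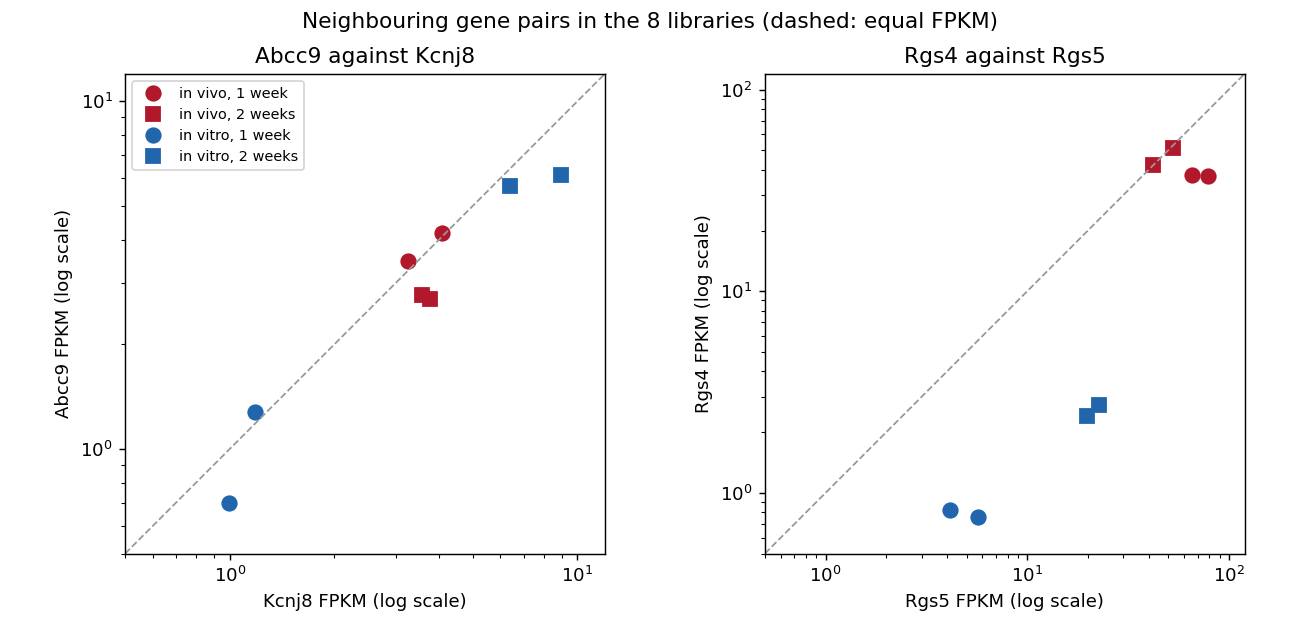
FPKM of *Abcc9* against *Kcnj8* (left) and of *Rgs4* against *Rgs5* (right) in the 8 libraries on log axes, with colour for the arm, shape for the week and a dashed line at equal FPKM. The *Kcnj8* and *Abcc9* points stay near the line, at ratios of 0.685 to 1.08. The culture points of *Rgs4* lie farther below it, at *Rgs5* to *Rgs4* ratios of 5.09 to 8.35, than the *in vivo* points, at ratios of 0.992 to 2.11.

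The promoters of these 2 neighbouring pairs are shown because the genes of each pair were called in the same direction in every comparison with a call, at ratios that varied little for *Kcnj8* and *Abcc9* and more for *Rgs5* and *Rgs4*. RefSeq sequences (GRCm38.p6) cover 250 bases before and 50 after the start, on the strand of the gene, at chr1:169655251-169655550 for *Rgs5*, chr1:169747593-169747892 for *Rgs4*, chr6:142571565-142571864 for *Kcnj8* and chr6:142702225-142702524 for *Abcc9*. They were searched on both strands for 6 motifs. The GATA factor motif was AGATAA. The T-box factor motif was AGGTGT. The E-box was CAGCTG. The STAT motif was TTCNNNGAA. The CArG box, bound by SRF with its partner Myocd, and the MEF2 site were searched in their usual forms. Capitals mark the matches.
Rgs5: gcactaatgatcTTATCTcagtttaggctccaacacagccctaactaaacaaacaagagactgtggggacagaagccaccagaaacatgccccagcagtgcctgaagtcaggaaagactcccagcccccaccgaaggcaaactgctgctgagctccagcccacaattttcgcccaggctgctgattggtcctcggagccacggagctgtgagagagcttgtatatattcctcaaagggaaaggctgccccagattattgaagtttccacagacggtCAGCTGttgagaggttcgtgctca
Rgs4: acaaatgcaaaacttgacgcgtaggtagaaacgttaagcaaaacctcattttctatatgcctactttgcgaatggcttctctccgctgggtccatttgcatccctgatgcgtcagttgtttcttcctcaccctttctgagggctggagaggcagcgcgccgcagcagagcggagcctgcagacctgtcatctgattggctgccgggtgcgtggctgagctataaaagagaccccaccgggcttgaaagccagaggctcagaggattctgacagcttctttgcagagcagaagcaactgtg
Kcnj8: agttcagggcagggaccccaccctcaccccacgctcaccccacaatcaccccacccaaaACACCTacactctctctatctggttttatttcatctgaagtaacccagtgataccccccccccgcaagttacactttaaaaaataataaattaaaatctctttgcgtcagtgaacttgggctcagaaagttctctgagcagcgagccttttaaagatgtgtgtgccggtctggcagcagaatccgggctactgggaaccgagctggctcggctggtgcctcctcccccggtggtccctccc
Abcc9: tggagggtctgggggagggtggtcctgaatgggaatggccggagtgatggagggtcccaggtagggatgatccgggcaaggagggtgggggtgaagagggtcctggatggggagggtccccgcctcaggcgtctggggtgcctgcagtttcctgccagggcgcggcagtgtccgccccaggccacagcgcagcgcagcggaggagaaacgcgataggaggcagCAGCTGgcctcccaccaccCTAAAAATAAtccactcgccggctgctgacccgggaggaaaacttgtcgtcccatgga

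*Rgs5* held 1 GATA match and 1 E-box match, *Kcnj8* held 1 T-box match and *Abcc9* held 1 E-box match and 1 MEF2 match, while the *Rgs4* window held none of the 6. Of 32851 promoter windows of this length, 11.2% held the GATA motif, 13.7% the T-box motif, 16.3% the E-box, 8.30% the STAT motif, 1.63% a CArG box and 3.19% a MEF2 site. The windows of *Kcnj8* and *Abcc9* had none of the 6 motifs in common, nor had those of *Rgs5* and *Rgs4*. A match describes the letters and not a bound site.

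The genes with the most similar profiles were sought among 11443 protein-coding genes by the root mean square difference of the centred log2 values over the 8 libraries. Among the 8 genes themselves, *Kcnj8* and *Abcc9* were the closest pair, at 0.252, and *Abcc9* was the nearest of all candidates to *Kcnj8*, followed by *Aqp1* (0.276) and *Art3* (0.305). *Abcc9* was nearest to *Gm13889* (0.230), then *Kcnj8* and *Fam167b* (0.282). *Rgs5* was nearest to *Tcim* (0.293), *Adgrl4* (0.295) and *Myct1* (0.329), of which *Adgrl4* and *Myct1* are endothelial genes. *Rgs4* was instead nearest to the matrix genes *Mfap4* (0.166), *Col8a2* (0.232) and *Aspn* (0.265). *Cspg4* was nearest to *Nr1d1* (0.130), *Cxcl14* (0.154) and *Adarb1* (0.171), but it had 53 genes within 0.25, beside 2 for *Rgs4* and 0 for *Rgs5*. *Pdgfrb* and *Mcam*, whose levels varied little, had 4477 and 714 genes within 0.25, led by *Sp1* (0.0335) and *Gramd1a* (0.0767), and their nearest genes carry little weight. *Higd1b* had no near profile, with *Lmod2* at 0.422 and *Cldn5*, an endothelial tight junction gene, at 0.643.

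A wider list of 38 pericyte genes was read beside the 8, of which 33 could be tested. The calls at 1 week were 8 higher and 5 lower *in vivo*, beside 7.79% and 5.07% of all tested genes, with a median log2 fold change of 0.22. Those at 2 weeks were 5 higher and 6 lower, beside 9.02% and 8.05%, with a median of 0.02. In culture 6 rose and 0 fell between the weeks, beside 2.76% and 1.05% of all tested genes. *In vivo* 0 were called, and 1 had a higher and 5 a lower ratio at 2 weeks than at 1 week, beside 0.573% and 1.15%. With any 1 library left out, the number with a changed ratio was 0 to 3 in place of 6. *Gja4*, which encodes connexin 37, was at 13.9 ± 0.7 FPKM against 1.06 ± 0.02 at 1 week and 16.4 ± 2.2 against 7.53 ± 0.82 at 2 weeks (log2 3.60 and 1.11, both called). *Vtn*, the gene of vitronectin, was at 3.33 ± 0.05 against 0.343 ± 0.214 and 2.18 ± 0.37 against 1.24 ± 0.14 (3.04, called, and 0.76, not called). These 2 genes had the direction of *Rgs5* at both weeks, with a smaller difference at 2 weeks. *Colec11*, which encodes a collectin, went the other way, at 9.14 ± 1.54 against 20.2 ± 1.2 and 5.76 ± 2.22 against 66.1 ± 1.0 (log2 -1.14 and -3.55). The other genes lower at 1 week were *Notch3*, *Kcnk3*, *Gucy1a1* and *Agtr1a*, named after their values were seen, so the pericyte list as a whole was called in both directions.

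**Figure D4:**
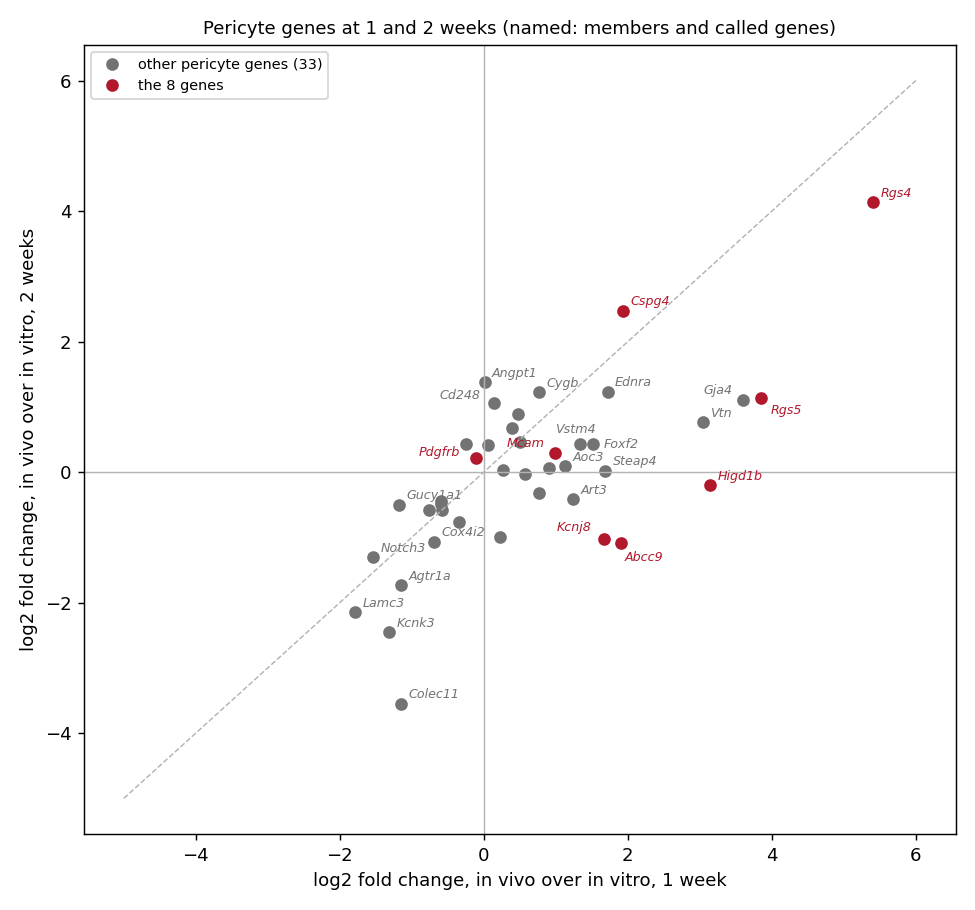
Log2 fold change *in vivo* over *in vitro* at 1 week (horizontal axis) and at 2 weeks (vertical axis) for the 8 genes (red) and the 33 other tested pericyte genes (grey), with a dashed line at equal values; both weeks share no library. *Kcnj8* and *Abcc9* lie at 1.66 and 1.90 at 1 week and at -1.02 and -1.09 at 2 weeks, below zero on the vertical axis, and *Rgs4* lies farthest to the right, at 5.41.

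Markers of the neighbouring cell types moved with some of the 8 genes. Of the 11 fibroblast markers, 9 were called higher *in vivo* at 1 week and 8 at 2 weeks. The shares of all tested genes were 7.79% and 9.02%. At either week 0 were lower, beside 5.07% and 8.05%. *Pdgfra* and *Tcf21* were called at neither week. *Rgs4*, *Cspg4* and *Rgs5* were also called higher at both weeks. The part of the fibroblast genes in these results was not tested. The 13 contractile genes of smooth muscle, among them *Acta2*, *Tagln* and *Myh11*, had 2 called higher and 1 lower at each week. All tested genes had 7.79% and 5.07% called at 1 week and 9.02% and 8.05% at 2 weeks. The summed FPKM of the list was 746 to 918 in the *in vivo* samples and 1115 to 1424 in the *in vitro* samples. Most of it was *Acta2*, with means of 586 and 414 *in vivo* and 788 and 800 *in vitro* at 1 and 2 weeks. Without the scaling between libraries, 9 of the 13 genes were called at 2 weeks, where 3119 of the 15708 tested genes were. The contractile sum was thus higher in culture, where *Rgs5* and *Rgs4* were lower. *Pln*, the phospholamban gene (log2 2.51 and 3.97), and *Sncg*, a synuclein gene (2.10 and 3.06), were the higher genes at both weeks, and *Des*, the desmin gene, was lower at 2 weeks (-1.47).

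Of the 13 endothelial markers, 11 were called higher *in vivo* in the first week and 5 in the second, beside 7.79% and 9.02% of all tested genes. In either week 0 were lower, beside 5.07% and 8.05%. Without the scaling between libraries, 3 were called in the second week, where 3119 of the 15708 tested genes were. In culture 9 rose and 0 fell between the weeks, beside 2.76% and 1.05% of all tested genes. *In vivo* 0 were called, and 5 had a lower and 0 a higher ratio at 2 weeks, beside 1.15% and 0.573%. Leaving out any 1 library left 0 or 1 interaction calls in place of 5, and the count over time in culture was 5 without replicate 2 of the *in vitro* samples at 1 week and 3 and 4 without replicates 1 and 2 of those at 2 weeks. The summed FPKM was 195 to 203 and 193 to 198 in the *in vivo* samples at 1 and 2 weeks, and 64.7 to 66.0 and 109 to 118 in the *in vitro* samples. *Emcn*, an endothelial sialomucin gene, was at 3.80 ± 0.60 against 0.310 ± 0.123 at 1 week and 3.13 ± 0.70 against 1.62 ± 0.17 at 2 weeks, and the transcription factor gene *Erg* was at 16.7 ± 3.2 against 0.436 ± 0.152 and 20.6 ± 0.8 against 1.60 ± 0.34, while *Vwf* had log2 fold changes of 2.08 and 3.40. The summed FPKM of the endothelial markers thus had both *in vivo* groups above culture at 2 weeks and culture at 1 week the lowest, as *Rgs5* did. Single markers did not all have this order, since *Vwf* was lowest in culture at 2 weeks (a mean of 0.105 FPKM) and *Esam*, an endothelial adhesion gene, had a mean of 9.18 *in vivo* and 10.3 in culture at 2 weeks. Their part in the results for *Rgs5*, *Mcam* and the KATP genes was not tested. The cardiomyocyte list, with 10 tested genes, also rose in culture, with a summed FPKM of 111 to 123 and then 561 to 636, against 10.6 to 26.0 *in vivo*. In culture 6 of its genes were higher and 0 lower at 2 weeks than at 1 week, beside 2.76% and 1.05% of all tested genes. That count was 1 without replicate 1, and 2 without replicate 2, of the *in vitro* samples of either week. *Kcnj8*, *Abcc9* and *Higd1b*, highest in culture at 2 weeks, moved with this list over time in culture. At 1 week, though, these 3 genes were lower in culture than *in vivo*, while the cardiomyocyte list was higher there. In that list 6 genes were lower and 1 higher *in vivo* at 1 week, beside 5.07% and 7.79% of all tested genes. At 2 weeks 8 were lower and 2 higher, beside 8.05% and 9.02%. The part of the cardiomyocyte genes in the result was not tested.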

How the data were processed

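RNA of FACS-sorted eGFP+ cells was sequenced by the authors' provider. The deposited FPKM were made by the authors' pipeline, for which the submitters' processing notes name CASAVA, HISAT2 2.0.5 and mm10; the counting tool, its annotation and strand setting are not given in the sources used here. Per the labels, SMARTER libraries were used. Each column was matched to 1 sample by title, with 0 columns left over. In each library 100% of the FPKM, once multiplied by gene length, fell on whole steps (tolerance 0.1), which gave fragments per gene and the library sizes behind the FPKM. These sizes were 0.863 to 1.15 times the fragments on genes, so the values already hold a scaling between libraries. One fragment on a gene of 1 kb was worth an FPKM of 0.0650 to 0.0905. The fragment-based interval and floor reflect counting error alone, since PCR copies are not independent molecules. Replicates differed by more than sampling noise (chi-square of 4.50 to 9.93 per gene).

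The authors used DESeq2 on counts. Here limma 3.58.1 in R 4.3.3 was fitted to log2(FPKM + 0.1) of all 8 libraries in 4 groups, with moderated variances and an intensity trend, over 15708 genes at an FPKM of at least 0.5 in 2 libraries. A call needed a Benjamini-Hochberg adjusted p below 0.01 with a log2 fold change beyond 1 in either direction. FPKM ratios were compared by exact permutation. Gene IDs were placed on GRCm38 with GENCODE vM21, with which 98.3% of 54409 shared IDs had the same coordinates, and promoters are from RefSeq (6 of the 8 genes used). Named genes were every member, its family, the 3 called genes of largest change per list whose higher group reached an FPKM of 1, and the 3 nearest profiles. The members and lists were chosen with earlier results of these data known, and 1 gene of the lists is not reported here. Across genes, the deviations of same-numbered *in vivo* and *in vitro* libraries had correlations of -0.0199 and -0.0219, so the numbers were not treated as pairs. The limma fit was tested on simulated counts for the comparison at 1 week only, with changes planted in genes with many fragments. It was not tested in this way for low genes, the other comparisons or the ratios. Alternatives were other pseudocounts (0.01 and 1), filters and scalings, no variance trend, protein-coding genes, 1 week only, the replicate block, voom and each library left out. Tables were built in Python 3.11.15 (pandas 2.3.3, numpy 2.4.6) and figures in matplotlib 3.10.9.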

Additional observations from a re-analysis of the deposited data

Results flagged for a closer look

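The *in vivo* over *in vitro* change differed between the weeks, by the interaction term of the limma fit, for *Rgs5* (log2 -2.71), *Kcnj8* (-2.68), *Abcc9* (-2.99) and *Rgs4* (-1.27), with limma adjusted p of 0.0036, 0.0038, 0.006 and 0.0064. In all 4 the *in vitro* libraries had higher FPKM at 2 weeks than at 1 week, and no *in vivo* change over time was called for these genes. No group held enough libraries for a search for outlying samples.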

How the results depend on the processing

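Of 736 recomputed values of the 8 genes, 641 kept their direction and their side of the threshold, 84 kept the direction and lost the call, 2 gained one and 9 changed sign; the cause was not tested. Members called at 1 week numbered 4 to 7 over the alternatives and 0 over time *in vivo* in each. At 2 weeks the count of 5 became 3 with a pseudocount of 1, no filter, no variance trend or that week's libraries alone, and 2 to 5 with 1 library left out. Over time in culture the 5 became 3 to 5 with 1 library left out. The interaction count of 4 became 0 with no filter, no variance trend or the replicate block, and 0 to 1 with 1 library left out; over all genes the interaction calls went from 271 to 72, 71 and 27, and to 2 to 86. Protein-coding genes alone gave 463 and voom 473. The block, which rests on numbers that share no origin in the labels, left the *Rgs5* to *Rgs4* ratio difference at -2.27 with a p of 0.125, the smallest that 4 pairs can give. With 1 library left out, the log2 differences of the *Pdgfrb* to *Pdgfra* and *Abcc9* to *Kcnj8* ratios ran from -0.172 to 0.0328 and from -0.0075 to 0.207. Without the scaling between libraries, *Pdgfrb* and *Mcam* at 2 weeks were -0.111 and -0.0367, and the changes over time *in vivo* of *Kcnj8* and *Pdgfrb* were -0.0298 and -0.0126, beside -0.0487 for *Pdgfrb* with quantile normalization. With 1 library left out, these changes ran from -0.151 to 0.17 for *Kcnj8* and from -0.0143 to 0.0697 for *Pdgfrb*. Of 1104 recomputed counts over the gene lists, 228 moved by over 1.5 times. Without the scaling between libraries, calls at 2 weeks went from 3 to 9 in the contractile list and from 3 to 6 in the RGS list. Those of the endothelial list went from 5 to 3, and those of all tested genes from 2682 to 3119. With 1 library left out, the group's other library is assumed to vary like the remaining groups.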
